A study of Homo sapiens with 4 samples.

Results

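The genes of the proteasome, the protease that degrades ubiquitin-tagged proteins, were examined after knockdown of ACTL6A in SNU638 cells, a line derived from human gastric cancer. Members were all probe sets whose annotation held exactly 1 gene symbol beginning with PSMA, PSMB, PSMC, PSMD, PSME or PSMG and a digit. The rule found 93 probe sets for 49 of the 19775 genes on the array with such a symbol. Of these 49 genes, 41 encode proteasome subunits, activators or assembly chaperones. The other 8 match by name only and were kept apart: PSMC3IP, PSME3IP1 and 6 transcripts named after a neighbouring gene. PSMA6, PSMB11, PSMC5, PSMD7, PSMD13 and PSME2 are not analysed here.

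Cells carried an shRNA against ACTL6A (sh-ACTL6A, 2 arrays) or a scramble RNA control (scramble, 2 arrays). The protocol given for all 4 samples describes lentiviral pLKO.1 vectors, repeated infection and puromycin selection, so both groups share vector and selection as far as it tells. The labels do not say which hairpin each sh-ACTL6A array carried, nor whether its arrays stem from different cultures. Each p-value is therefore set against a spread between arrays that may be technical. In bulk RNA, fewer cells of a type and less RNA per cell cannot be told apart. Values are log2 signals per probe set, and each difference is sh-ACTL6A minus scramble.

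The proteasome consists of a barrel-shaped 20S core and caps that feed it. In the core, rings of alpha subunits gate the entrance to rings of beta subunits, of which PSMB5, PSMB6 and PSMB7 carry the chymotrypsin-like, caspase-like and trypsin-like sites. Interferon gamma induces PSMB8, PSMB9 and PSMB10, which replace these subunits in that order in the immunoproteasome and alter the peptides made for class I antigen presentation. The 19S cap binds ubiquitin chains, unfolds substrates with the PSMC ATPases of its base and removes ubiquitin in its lid. PSME proteins are alternative activators, and PSMG proteins assemble the core. When proteasome activity falls short, the transcription factor NRF1 (NFE2L1), a relative of the NRF2 factor followed in this study, raises the subunit genes together through antioxidant response elements.

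ACTL6A read 10.16 and 10.32 on the sh-ACTL6A arrays, against 11.92 and 11.82 on the scramble arrays, a difference of -1.63 ± 0.14 (SE, limma adjusted p = 0.0408). It was the single call among 12286 genes tested, those with a mean log2 signal of at least 5.63. Leaving out a scramble array ended the call, at -1.58 when replicate 1 was omitted (limma adjusted p = 0.9996) and -1.68 when replicate 2 was (limma adjusted p = 0.567). The epithelial markers EPCAM, CDH1, KRT8, KRT18 and KRT19 passed that threshold and CLDN4 did not. KRT18 read 14.12 and 14.28 on the sh-ACTL6A arrays, against 14.51 and 14.58 on the scramble arrays, without overlap. Its difference of -0.34 ± 0.085 (SE, unadjusted p = 0.00408, limma adjusted p = 0.595) was larger in size than that of any proteasome gene, and its part in their values was not tested. None of the 4 leukocyte markers with a named probe set passed it, nor did 3 of 5 fibroblast and 2 of 3 endothelial markers. COL1A1, the brightest of these markers of other cells to be tested, read 8.52 and 8.28 on the sh-ACTL6A arrays, against 8.66 and 8.31 on the scramble arrays. The probe sets used for COL1A1, KRT8 and KRT18 are of a type that may also bind other transcripts (suffix _x_at). The 3′ minus 5′ log2 difference of the ACTB control probes, a measure of RNA quality, was 1.21 and 0.78 on sh-ACTL6A replicates 1 and 2, against 1.63 and 0.78 on scramble replicates 1 and 2. It was thus higher on replicate 1 of both groups.

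Promoter sequence was searched for 4 short motifs in the members and in all genes. RefSeq windows (GRCh38.p14, 250 bases before to 50 after a gene start) matched 35 of the 41 proteasome genes by gene identifier. On either strand, the core of the antioxidant response element, TGACNNNGC, was present in at least 1 window of 13 of these 35 genes (37.1%) and of 4384 of 27305 genes in the table (16.1%). The ETS motif CCGGAA was present in 17 of 35 against 20.1% of all genes, the NF-Y motif CCAAT also in 17 against 39.7%, and the GC box GGGCGG in 23 against 48.3%. No motif of these contains another. The following stretches of up to 25 bases hold the core, in capitals, with its neighbours in lower case, read 5′ to 3′ along the strand that carries it. They are shown for the members with a core whose array values are described in turn, and PSMD3 has 2. PSMB3, PSMD5, PSMD9 and PSMD12 also hold it.
PSME4, chr2:53971011-53971035, + strand: tctgctggTGACGCTGCagccgccg
PSMG1, chr21:39183618-39183642, - strand: ccagggcaTGACAGCGCgggcgggc
PSMG2, chr18:12658691-12658715, + strand: gtttcccgTGACCCCGCggccgctc
PSMC4, chr19:39971184-39971208, - strand: ctccatagTGACCAAGCcggcctct
PSMD3, chr17:39980762-39980786, + strand: ccctttgtTGACTCGGCcatcggcc
PSMD3, chr17:39980832-39980856, - strand: ccgcacgaTGACGGAGCagctgcaa
PSMD1, chr2:231056898-231056916, + strand: gaggcgacTGACTGAGCag
PSME1, chr14:24136100-24136124, + strand: ggcagggcTGACCCCGCctcctcca
PSMA4, chr15:78540652-78540676, + strand: gggcacgaTGACTCTGCaccgcctc
PSMB9, chr6:32854036-32854060, - strand: gagacaagTGACGAGGCagccccgc
A match of letters is a description and not a bound site. The 13 tested genes with the core had a median difference of -0.061, with 4 above 0 and 9 below. The 21 tested genes without it had a median of -0.046, with 3 above 0 and 18 below.

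Proteasome transcripts were bright and differed little after ACTL6A knockdown. Of the 41 proteasome genes, 40 passed the signal threshold, and PSMA8, a testis subunit, did not. None of the 40 passed limma's adjusted threshold (lowest adjusted p = 0.914, for PSMG4), where 0.00814% of all tested genes were called. At an unadjusted p under 0.05 the count was 0 of 40 as well, against 5.50% of all tested genes (3.21% higher and 2.30% lower). The methods' t-test called 0 after Benjamini-Hochberg adjustment and 2 before it, where 672 of all 12286 tested genes also had an unadjusted p under 0.05. No proteasome gene differed by 0.5 or more on the log2 scale, as 8.07% of all tested genes did, but only 23 of the 1606 with a mean log2 signal of 12 or more. For 34 of the 40, the whole 95% confidence interval lay within 0.5 of 0, which was true of 34.8% of all tested genes, and for all 40 it lay within 1. Among the 1606 bright genes just named, 1367 had an interval within 0.5, so that this precision is shared by bright genes at large. The 6 with a wider interval were PSMC3, PSMD3, PSME3, PSMG4, PSMB8 and PSMB10.

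**Figure D1:**
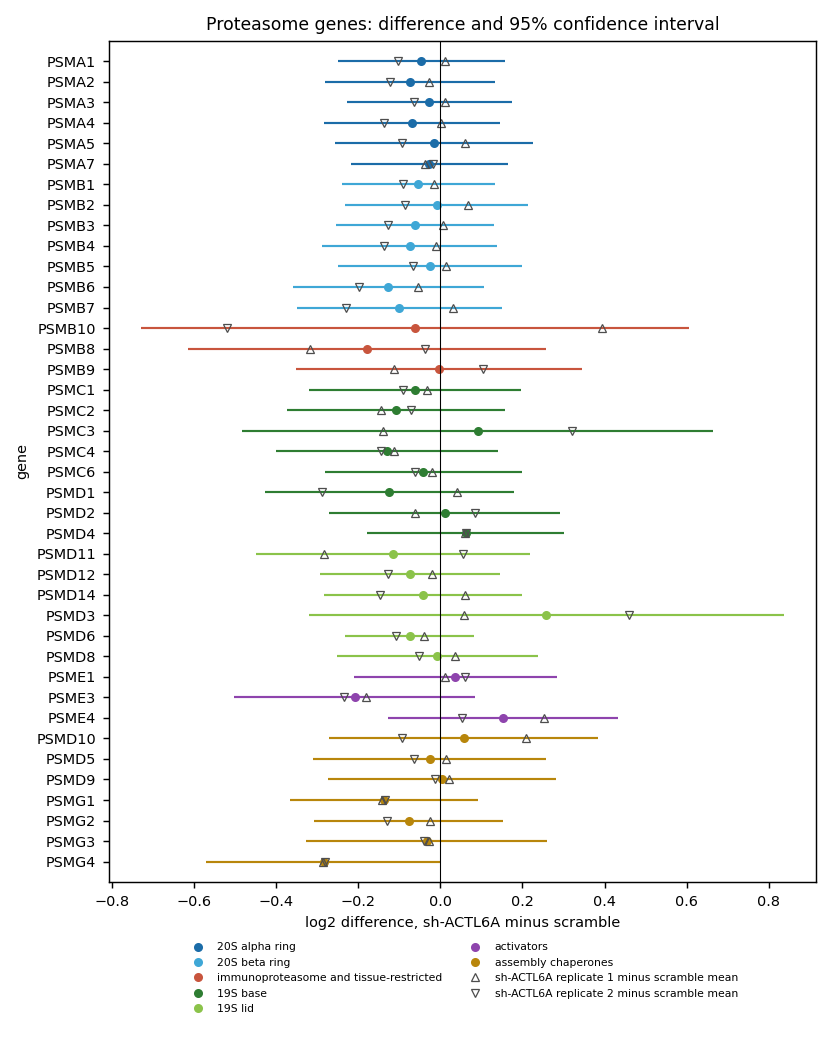
Log2 difference (horizontal axis) of the 40 tested proteasome genes (vertical axis), coloured by class, with lines for the 95% confidence interval and triangles showing both sh-ACTL6A arrays singly, relative to the scramble mean. The interval of PSMG4 ends at 0.0028, and no group difference lies beyond -0.28 or 0.26. Single sh-ACTL6A arrays reach -0.52 (PSMB10, replicate 2) and 0.46 (PSMD3, replicate 2).

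Most of the differences were small and negative, and most bright genes in general also lay below 0. Of the 40 genes, 32 lay below 0 and 8 above, with a median of -0.050, while 51.9% of all tested genes lay above 0 and their median was 0.0090. After median centring of the arrays 16 of the 40 lay above 0 (median -0.018, against 0.041 for all tested genes), and after quantile normalisation 14 did (median -0.018, against 0.0029). At a mean log2 signal of 12 or more, 24 of 28 proteasome genes lay below 0 with a median of -0.057, as did 1062 of 1606 tested genes with a median of -0.041. Below 12, 8 of 12 proteasome genes lay below 0 with a median of -0.030, against 4851 of 10680 tested genes with a median of 0.024. The limit of 12 was set after the values were seen. The 2 sh-ACTL6A arrays were unlike each other in this respect. Against the scramble mean, the proteasome median was -0.014 on sh-ACTL6A replicate 1, with 19 of 40 above 0, and -0.091 on replicate 2, with 8 of 40 above 0. All 1606 genes at a signal of 12 or more split in the same way, with a median of 0.0038 and 835 above 0 on replicate 1, and -0.071 and 497 above 0 on replicate 2.

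The 20S alpha ring, the gate of the core, held to the narrowest range of the classes and had the highest median signal (13.69). By their brightest probe sets, all 6 tested genes lay below 0, between -0.074 and -0.016, with a median of -0.037. The groups of arrays overlapped for each of these probe sets. Dimmer probe sets above the threshold lay above 0 for PSMA3 (0.23), PSMA5 (0.16, groups apart) and PSMA7 (0.040). Those of PSMA1 and PSMA2 lay below 0. PSMA2 read 13.66 and 13.57 on the sh-ACTL6A arrays, against 13.73 and 13.65 on the scramble arrays, a difference of -0.074 ± 0.089 (SE, adjusted p = 0.956). PSMA4 read 13.76 and 13.62 on the sh-ACTL6A arrays, against 13.80 and 13.71 on the scramble arrays, and differed by -0.068 ± 0.092 (SE). PSMA1 differed by -0.046 ± 0.087 (SE). For each of these genes the lower sh-ACTL6A array was replicate 2 and the lower scramble array was replicate 2 as well. On sh-ACTL6A replicate 2 all 6 genes lay below the scramble mean, and on replicate 1, 4 of 6 lay above it. The median was 0.0063 without replicate 2, -0.098 without replicate 1 and 0.0038 after quantile normalisation.

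The 20S beta ring holds the protease sites. By their brightest probe sets, all 7 genes lay below 0, between -0.13 and -0.0088, with a median of -0.061. For 3 of them both sh-ACTL6A arrays lay below both scramble arrays, as for 15.4% of all tested genes. Of the 1606 tested genes at a mean log2 signal of 12 or more, 344 had groups apart in this direction. The median of the beta ring was 0.0057 without sh-ACTL6A replicate 2, -0.13 without replicate 1 and 0.034 with probe sets averaged. A dimmer probe set above the threshold lay above 0 for PSMB2, PSMB4 and PSMB7, and none did for PSMB1. PSMB6, the caspase-like subunit, read 13.05 and 12.91 on the sh-ACTL6A arrays, against 13.12 and 13.10 on the scramble arrays, without overlap. It differed by -0.13 ± 0.10 (SE, adjusted p = 0.941), a fold of 0.916 with 95% bounds of 0.780 and 1.08. PSMB5, the chymotrypsin-like subunit and the main target of bortezomib, read 13.08 and 13.01 on the sh-ACTL6A arrays, against 13.10 and 13.04 on the scramble arrays. The difference was -0.026 ± 0.096 (SE), or a fold between 0.841 and 1.15 with a best estimate of 0.982. PSMB7, the trypsin-like subunit, read 13.79 and 13.53 on the sh-ACTL6A arrays, against 13.79 and 13.72 on the scramble arrays, a difference of -0.099 ± 0.11 (SE). Its groups overlapped through sh-ACTL6A replicate 1. PSMB4, a structural subunit, read 13.51 and 13.39 on the sh-ACTL6A arrays, against 13.53 and 13.52 on the scramble arrays, and differed by -0.074 ± 0.091 (SE).

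The immunoproteasome genes were dimmer and had larger errors than their constitutive partners, and none had groups apart. In a limma fit across every probe set, the median SE was 0.17 at a mean log2 signal of 8 to 12 and 0.11 at 12 or more. PSMB8, the partner of PSMB5, read 9.30 and 9.58 on the sh-ACTL6A arrays, against 9.46 and 9.77 on the scramble arrays, a difference of -0.18 ± 0.19 (SE, adjusted p = 0.951). In both groups replicate 1 was the lower array. PSMB9, the partner of PSMB6, read 10.41 and 10.63 on the sh-ACTL6A arrays, against 10.48 and 10.56 on the scramble arrays, a difference of -0.0039 ± 0.15 (SE). PSMB10, the partner of PSMB7, read 9.63 and 8.71 on the sh-ACTL6A arrays, against 9.33 and 9.14 on the scramble arrays, so that the scramble values lay inside the sh-ACTL6A pair. Its difference was -0.062 ± 0.29 (SE), with 95% bounds of 0.603 and 1.52 on the fold. PSMA8, below the signal threshold, read 4.18 and 3.78 on the sh-ACTL6A arrays, against 4.67 and 4.95 on the scramble arrays (adjusted p = 0.960 over all probe sets). The class I antigen processing genes, which interferon gamma raises along with the immunoproteasome, had 0 of 8 tested members called, with 4 above 0 and 4 below and a median of 0.068. Within that list ERAP1, which trims peptides, differed by 0.59 ± 0.46 (SE) and the transcription factor IRF1 by 0.18 ± 0.19 (SE), neither past the threshold. IRF1 differed by 0.35 without sh-ACTL6A replicate 1 and by 0.0066 without replicate 2.

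The base of the 19S cap unfolds substrates and threads them into the core. Of its 8 tested genes 3 lay above 0 and 5 below, between -0.13 and 0.091, with a median of -0.051, which was -0.12 without scramble replicate 2. PSMC4, an ATPase subunit, read 11.75 and 11.72 on the sh-ACTL6A arrays, against 11.89 and 11.84 on the scramble arrays. The groups did not overlap, and the difference was -0.13 ± 0.12 (SE, adjusted p = 0.941). PSMC2, another ATPase, read 13.13 and 13.20 on the sh-ACTL6A arrays, against 13.40 and 13.14 on the scramble arrays, a difference of -0.11 ± 0.11 (SE) with overlap. PSMD1, a scaffold subunit, read 13.09 and 12.76 on the sh-ACTL6A arrays, against 13.12 and 12.99 on the scramble arrays, and differed by -0.12 ± 0.13 (SE). Without sh-ACTL6A replicate 2 its difference was 0.042.

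The 19S lid removes ubiquitin before substrates enter the core. Of its 6 tested genes 1 lay above 0 and 5 below, with a median of -0.058. The median was 0.0084 without sh-ACTL6A replicate 2 and -0.079 without replicate 1. PSMD6 read 14.84 and 14.77 on the sh-ACTL6A arrays, against 14.88 and 14.88 on the scramble arrays, a difference of -0.074 ± 0.068 (SE, adjusted p = 0.941). Its groups did not overlap, and its SE was the smallest of the 40 genes. PSMD11 read 12.28 and 12.62 on the sh-ACTL6A arrays, against 12.46 and 12.66 on the scramble arrays, and differed by -0.11 ± 0.14 (SE). PSMD3 was the 1 lid gene above 0, at 10.996 and 11.40 on the sh-ACTL6A arrays, against 10.57 and 11.30 on the scramble arrays. Its difference of 0.26 ± 0.25 (SE, adjusted p = 0.945) rested on scramble replicate 1, without which it was -0.11.

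PSMD3 and the base ATPase PSMC3, which was singled out after its values were seen, varied more by replicate number than by group. PSMC3 read 11.15 and 11.61 on sh-ACTL6A replicates 1 and 2, against 10.95 and 11.64 on scramble replicates 1 and 2, a group difference of 0.091 ± 0.25 (SE). Replicate 1 was thus lower than replicate 2 by 0.46 in sh-ACTL6A and by 0.70 in scramble for PSMC3, and by 0.40 and 0.73 for PSMD3. Across the 40 proteasome genes, which are not independent replicates and share the same 4 arrays, the difference between replicates 1 and 2 in sh-ACTL6A and that in scramble had a Pearson's r of 0.67 and a Spearman's rho of 0.38. Without PSMC3 and PSMD3, r was 0.52 and rho 0.27. Over all 12286 tested genes r was 0.056 and rho 0.088. The ACTB 3′ minus 5′ difference went with the replicate number too, as did KRT8, at 11.55 and 12.41 on sh-ACTL6A replicates 1 and 2, against 11.67 and 12.76 on scramble replicates 1 and 2. Of the other tested epithelial markers, KRT18 and KRT19 were also lower on replicate 1 of both groups. EPCAM and CDH1 went the other way and were higher on it. The part of the ACTB difference and of these markers in the replicate differences was not tested. With the replicate number as a block, the SE of the group difference was 0.15 for PSMD3 and 0.14 for PSMC3, and the differences did not pass (adjusted p = 0.798 and 0.956).

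**Figure D2:**
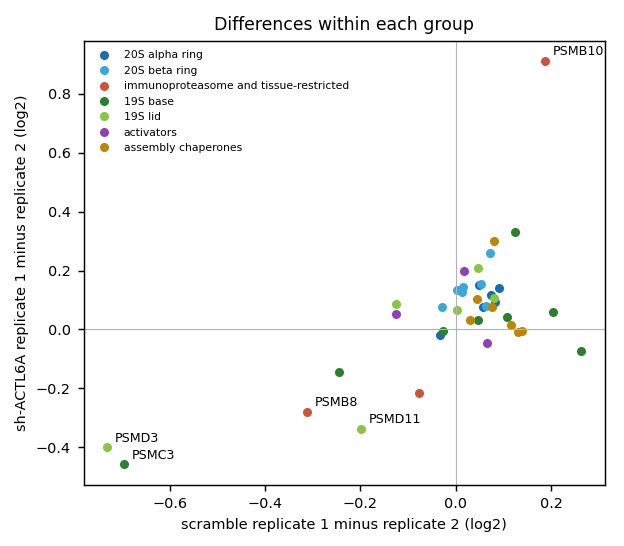
Log2 signal of replicate 1 minus replicate 2 among scramble arrays (horizontal axis) and among sh-ACTL6A arrays (vertical axis), 1 point per tested proteasome gene, coloured by class. PSMD3 and PSMC3 lie lowest on the scramble axis, at -0.73 and -0.70, and also below 0 on the sh-ACTL6A axis, at -0.40 and -0.46.

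The activators bind the core in place of the 19S cap, and 3 were tested. PSME3 and PSME4 had several probe sets, all on the same side of 0 within each gene. They were among 11 such genes of the 20 proteasome genes with at least 2 probe sets above the threshold. PSME1 had 1 probe set. PSME3, the nuclear activator PA28 gamma, read 11.39 and 11.34 on the sh-ACTL6A arrays, against 11.51 and 11.64 on the scramble arrays, without overlap. The difference was -0.21 ± 0.13 (SE, adjusted p = 0.918), a fold of 0.866 with 95% bounds of 0.706 and 1.06. All 4 of its probe sets lay below 0, at -0.21, -0.39, -0.19 and -0.30. The lowest of these read 11.08 and 10.95 on the sh-ACTL6A arrays, against 11.39 and 11.42 on the scramble arrays, with an unadjusted p of 0.013 in a limma fit across every probe set (adjusted p = 0.960). In that fit 2 of 77 proteasome probe sets, both lower, had an unadjusted p under 0.05, against 2.65% lower, 2.35% higher and 5.01% in either direction among all probe sets. The PSME3 probe set at -0.30 had overlapping groups. Against the scramble mean it lay at -0.036 on sh-ACTL6A replicate 1 and -0.56 on replicate 2. Probe sets of 1 gene share the same RNA, and the 4 of PSME3 are not independent measurements of the groups. PSME3 has 2 probe sets of the type that may also bind other transcripts (suffix _x_at) and 2 that match several transcripts (_s_at). The probe sets used for PSMA1, PSMA7, NFE2L1 and UBLCP1 are also of the _x_at type.

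PSME4, the nuclear activator PA200, lay on the other side of 0. Its brightest probe set read 12.30 and 12.10 on the sh-ACTL6A arrays, against 12.05 and 12.04 on the scramble arrays, again without overlap. The difference was 0.15 ± 0.12 (SE, adjusted p = 0.941), a fold of 1.11 with bounds of 0.915 and 1.35. All 3 probe sets lay above 0, at 0.15, 0.19 and 0.29, but the groups overlapped for the dimmest, at 0.29 ± 0.25 (SE). The brightest probe set gave 0.053 without sh-ACTL6A replicate 1 and 0.25 without sh-ACTL6A replicate 2. PSME1, a subunit of the interferon-inducible activator PA28, read 12.41 and 12.46 on the sh-ACTL6A arrays, against 12.43 and 12.36 on the scramble arrays, and differed by 0.036 ± 0.11 (SE).

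**Figure D3:**
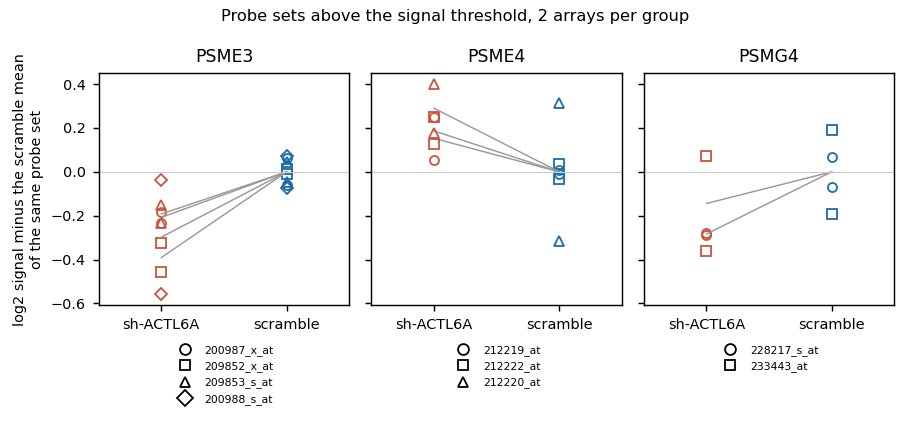
Log2 signal minus the scramble mean of the same probe set (vertical axis) on sh-ACTL6A and scramble arrays (horizontal axis, 2 each) for every probe set of PSME3, PSME4 and PSMG4 above the signal threshold, with a marker shape per probe set and lines joining group means. The means of all 4 PSME3 probe sets lie below 0 in sh-ACTL6A, between -0.39 and -0.19, and those of the 3 PSME4 probe sets lie above it, between 0.15 and 0.29.

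Among the assembly chaperones, 5 of 7 genes lay below 0, with a median of -0.034 and a range of -0.28 to 0.057. The median was 0.012 without scramble replicate 1, -0.091 without scramble replicate 2 and -0.093 without sh-ACTL6A replicate 1. PSMG4, which with PSMG3 guides the alpha ring, had the smallest p of all proteasome genes. It read 11.52 and 11.53 on the sh-ACTL6A arrays, against 11.88 and 11.74 on the scramble arrays, a difference of -0.28 ± 0.12 (SE, unadjusted p = 0.0518, adjusted p = 0.914). The fold was 0.822, with 95% bounds of 0.674 and 1.002. A dimmer PSMG4 probe set above the threshold read 6.41 and 5.98 on the sh-ACTL6A arrays, against 6.15 and 6.53 on the scramble arrays, with overlap, and differed by -0.14 ± 0.38 (SE). With all 5 PSMG4 probe sets averaged, 3 of them below the threshold, the difference was 0.33 (adjusted p = 0.985). PSMG1 read 12.99 and 13.001 on the sh-ACTL6A arrays, against 13.20 and 13.07 on the scramble arrays, and differed by -0.14 ± 0.099 (SE). PSMG2, its partner in the other chaperone pair, read 12.99 and 12.89 on the sh-ACTL6A arrays, against 13.04 and 12.995 on the scramble arrays, and differed by -0.077 ± 0.099 (SE). Neither gene had overlapping groups. In all, both sh-ACTL6A arrays lay below both scramble arrays for 9 of the 40 proteasome genes and above them for 2, where 15.4% and 19.3% of all tested genes did. At a mean log2 signal of 12 or more, the counts were 6 and 2 of 28 proteasome genes, against 344 and 199 of 1606 tested genes.

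Probe sets of the same gene did not always lie on the same side of 0. The part of the probe and of the spread between arrays in this was not tested. For 20 proteasome genes with at least 2 probe sets above the threshold, the differences had the same sign in 11 and opposite signs in 9. They spanned at most 0.37 within a gene, in PSMD9, whose dimmer probe set differed by -0.37 ± 0.39 (SE). Of 37 proteasome probe sets at a mean log2 signal of 12 or more, 7 lay above 0 (median -0.053), as did 839 of all 2465 probe sets that bright (median -0.039). Between 8 and 12, 12 of 26 lay above 0 (median -0.012), against 55.5% of all probe sets there. Below the threshold, 7 of 9 lay above 0, between -0.90 and 1.70 with SEs of 0.51 to 0.96, against 46.7% of all such probe sets. The bright probe sets of PSMB4 differed by -0.074 and -0.057, and its dimmer probe set by 0.27, reading 9.23 and 9.23 on the sh-ACTL6A arrays, against 8.83 and 9.10 on the scramble arrays. Nearest to the threshold among the subunits, a dim PSMB1 probe set read 6.06 and 6.11 on the sh-ACTL6A arrays, against 5.38 and 4.57 on the scramble arrays (1.11 ± 0.51, SE, adjusted p = 0.960). The brightest PSMB1 probe set differed by -0.053. Among the transcripts that match by name only, the nearest values above the threshold were -0.17 for a PSMB8-AS1 probe set and 0.87 for a PSMD6-AS2 probe set, and the nearest below it was -1.15 for PSMD14-DT, none past the threshold.

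**Figure D4:**
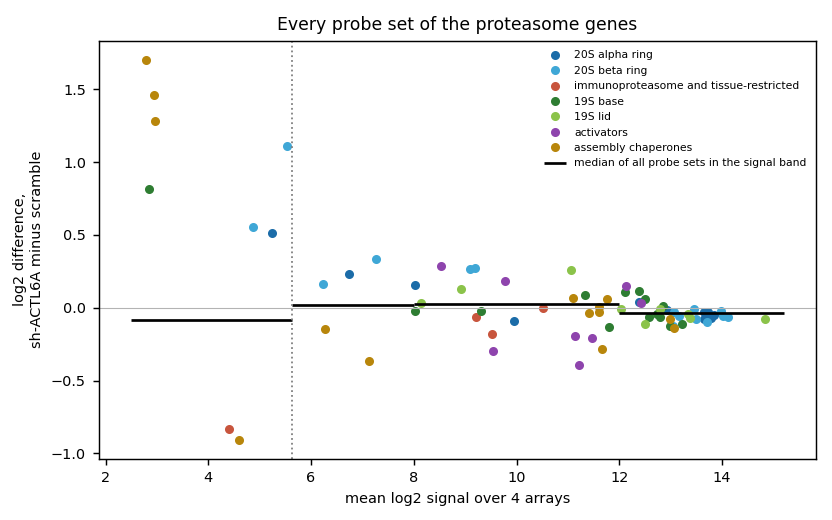
Log2 difference (vertical axis) of all 77 proteasome probe sets against mean log2 signal over 4 arrays (horizontal axis), coloured by class, with black bars for the median of all probe sets in 4 signal bands and the signal threshold of 5.63 dotted. Points at a signal of 12 or more lie between -0.14 and 0.15, and points below the threshold spread between -0.90 and 1.70.

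Genes that work with the proteasome without carrying its names were set beside it. The 11 partners, among them POMP, ADRM1 and USP14, had a median of -0.031, with 3 above 0 and 8 below and 0 called. PAAF1, another of these partners, read 10.20 and 10.05 on the sh-ACTL6A arrays, against 10.29 and 10.43 on the scramble arrays, and differed by -0.23 ± 0.15 (SE). UBLCP1, a proteasome phosphatase, read 11.37 and 11.69 on the sh-ACTL6A arrays, against 11.31 and 11.24 on the scramble arrays, and differed by 0.25 ± 0.15 (SE). The 7 tested shuttle factors and VCP genes, which bring ubiquitinated proteins to the proteasome, had a median of 0.089, with 6 above 0. UBQLN4 differed by 0.25 ± 0.14 (SE) and UFD1, a partner of the VCP segregase, by -0.15 ± 0.10 (SE).

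A list of NRF1, its processing enzymes, NRF2, KEAP1 and the factors that share their binding sites had a median of -0.040 over 7 tested members, with 3 above 0. NFE2L1, which encodes NRF1, read 12.01 and 12.17 on the sh-ACTL6A arrays, against 11.89 and 12.04 on the scramble arrays, and differed by 0.13 ± 0.12 (SE) with overlap. NGLY1, which deglycosylates NRF1, differed by 0.10 ± 0.14 (SE), and NFE2L2, which encodes NRF2, by -0.040 ± 0.12 (SE). The members below 0 were NFE2L2, BACH1, MAFF and MAFG. BACH1, a repressor at antioxidant response elements, read 9.65 and 9.65 on the sh-ACTL6A arrays, against 10.13 and 9.88 on the scramble arrays, a difference of -0.36 ± 0.16 (SE, unadjusted p = 0.0592, adjusted p = 0.917) without overlap. MAFF, a small MAF partner of the NRF factors, differed by -0.24 ± 0.13 (SE), also without overlap. Of the ubiquitin and E1 genes, UBB read 15.02 and 14.88 on the sh-ACTL6A arrays, against 15.04 and 15.07 on the scramble arrays. It differed by -0.10 ± 0.073 (SE), by -0.17 without sh-ACTL6A replicate 1 and by -0.031 without replicate 2. UBA6, a ubiquitin-activating enzyme, differed by -0.13 ± 0.14 (SE), by -0.0051 without sh-ACTL6A replicate 1 and by -0.26 without replicate 2. The median of the 3 tested was -0.10. No gene of these lists passed the adjusted threshold, where 0.00814% of all tested genes did, and 0 had an unadjusted p under 0.05, against 5.50% of all tested genes.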

How the data were processed

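On each of 4 single-colour Affymetrix arrays, 54675 probe sets had log2 signals, as deposited. MAS5 is the tool in the submitters' processing notes, with no version in the sources used here. The linear signals of every array had a 2% trimmed mean of 500.0, the mark of scaling to a common level. No depth applies, and the number of arrays limits the precision. Dim MAS5 signals vary widely between arrays.

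Symbols came from a platform table that holds 41091 probe sets with 1 symbol. Each gene was represented by its brightest probe set and tested if the mean log2 signal reached the 50th percentile of 54613 non-control probe sets. Differences were tested in R 4.3.3 with limma 3.58.1 (lmFit and trended eBayes), 2-sided. P-values were adjusted by Benjamini-Hochberg over all 12286 genes, with a threshold of 0.05. The test had 7.65 moderated degrees of freedom. A second fit covered every non-control probe set. The fits were tested on simulated data. No test was run over the members as a set.

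Named genes were ACTL6A, the 3 smallest p-values in each class, the catalytic pairs, probe sets nearest the threshold and the 2 smallest p-values in each pathway list. The rule also covered genes whose probe sets above the threshold differed in sign by 0.5 or more, and none did. The members and lists were chosen with earlier results of these data known. Results were recomputed after median centring or quantile normalisation, with no filter or one at the 75th percentile, with probe sets averaged or all tested, with 16 added to the linear signal, without the trend, with a replicate block, with the methods' t-test and leaving out single arrays. With 1 array left in a group, the fit assumes that it varies like the other pair.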

Additional observations from a re-analysis of the deposited data

How the results depend on the processing

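The count of proteasome genes called was 0 under every alternative run, and their median stayed between -0.091 and -0.014, the range with 1 array left out. The ACTL6A call was lost after quantile normalisation (-1.64), with no filter on dim genes, no intensity trend, the methods' t-test or every probe set tested (-1.63 each). Leaving out 1 array moved it between -1.71 and -1.55, with adjusted p between 3.02e-06 without sh-ACTL6A replicate 2 and 0.9996 without scramble replicate 1. Over all genes, 0 were called after quantile normalisation, with no filter, no trend, the methods' t-test or every probe set, and 0 to 401 with 1 array left out (0 without either scramble array, 401 without sh-ACTL6A replicate 1 and 335 without replicate 2). The cause was not tested.

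The labels give both groups the numbers 1 and 2 without saying that a number marks a shared culture or batch. The replicate block raised the count of all genes called to 2, none of them a proteasome gene (lowest adjusted p = 0.703, for PSMG4). Deviations of arrays with the same number correlated at 0.056 over all tested genes.

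Class medians turned round as well. The beta ring's was 0.034 with probe sets averaged and 0.0057 without sh-ACTL6A replicate 2, and the alpha ring's was 0.0038 after quantile normalisation. The activators' was -0.078 over every probe set.

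Several small differences turned round. Averaging all probe sets gave 0.0059 for PSMD11, 0.034 for PSMB7, 0.045 for PSMB4, 0.33 for PSMG4, 0.52 for PAAF1 and -0.14 for UBQLN4. Quantile normalisation gave 0.0028 for PSMA1, and median centring 0.028 for PSMB9 and 0.0061 for PSMB5. With 1 array left out, differences spanned both signs for 12 of the named genes, list genes included. Of all 40 proteasome genes, 4 lay above the scramble mean on both sh-ACTL6A arrays and 17 below it on both, and the others turned with the array. The same counts were 4008 and 3102 for all 12286 tested genes, and 313 and 587 for the 1606 at a mean log2 signal of 12 or more. Leaving out scramble replicate 1 gave -0.11 for PSMD3, -0.26 for PSMC3 and 0.023 for PSMC2, and leaving out scramble replicate 2 gave 0.62, 0.44 and -0.24 for them in that order. Leaving out sh-ACTL6A replicate 2 gave 0.042 for PSMD1, 0.0015 for PSMA4, 0.011 for PSMA1, 0.031 for PSMB7, 0.39 for PSMB10, 0.014 for PSMB5, -0.28 for PSMD11 and -0.066 for ERAP1. Leaving out sh-ACTL6A replicate 1 gave -0.29 for PSMD1, -0.14 for PSMA4, -0.10 for PSMA1, -0.23 for PSMB7, -0.52 for PSMB10, -0.065 for PSMB5, 0.055 for PSMD11 and 1.24 for ERAP1. PSMB9 ranged between -0.11 and 0.10. None of these passed the threshold. No residual spread is measured within a group left with 1 array, and 2 arrays per group limit what could be detected.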
